A study of Mus musculus with 5 samples.

Results

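The 1172 loci described here are stretches of the mouse genome from which RNA was assembled as a single unspliced exon, without any transcript of the reference annotation in the same locus. They were chosen by a rule on structure and level. Each carries only assembled transcripts of 1 exon, and its TPM (a length-corrected share of all transcripts in the library) averaged at least 1 over 5 libraries. At any level 2134 single-exon assembled loci were listed, among 2760 assembled loci with no reference transcript and 55981 loci in all. The level therefore chose the members and is given as a description. The rule set no limit on the change between treatments, but its mean spans both groups, and 45 members averaged under 1 TPM with chloride and 78 under 1 TPM with propionate. These 123 passed only through the group where they were higher, and none of them is among the loci called below.

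The RNA came from GL261 cells, a transplantable mouse glioma line, labelled as tumor cells and collected 24 h after the addition of a salt. Sodium propionate, the salt of a short-chain fatty acid that gut bacteria produce, was given to 2 samples (replicates 2 and 3), and sodium chloride to 3 (replicates 1, 2 and 3). The labelled dose was 1 uM for both salts, and propionate replicate 1 was not analysed here. The labels state no genetic change, and they do not say that the samples were separate cultures, so p-values measure only the spread between these libraries, which may be technical. Aligned sequence ran from 6.53 to 7.03 Gb per library, and each base of a locus at 1 TPM was read 4.73 to 4.99 times. Of the 9 glial and glioma markers, 8 averaged at least 1 TPM, the exception being Olig2, and their summed TPM was 5820 to 7426 with chloride and 6425 to 7223 with propionate. Vim, an intermediate filament gene, made up most of that sum (5472 to 7073 TPM over the chloride libraries), and other markers separated the groups: Pdgfra stood at 11.1 to 12.4 against 22.4 to 22.6 TPM, Fabp7 at 12.9 to 14.4 against 21.5 to 25.97, and S100b at 194 to 208 against 147 to 167. Cspg4 (16.6 to 18.1 against 20.1 to 22.1) and Gfap (3.22 to 5.20 against 5.24 to 6.59) were also higher with propionate. So was Olig2 (0.357 to 0.680 against 0.855 to 0.904), whereas Vim, Nes and Sox2 overlapped. Among 6 leukocyte markers only Cd68 averaged at least 1 TPM, Itgam was listed at 0 in every library, and Ptprc stayed at or under 0.0457, while their sum was 6.32 to 7.64 with chloride and 10.2 to 12.2 with propionate. Endothelial markers (3) summed to 0.0246 to 0.0722 against 0.137 to 0.157 TPM, neuronal markers (3) to 0.282 to 0.669 against 0.480 to 0.684, and oligodendrocyte markers (3) to 3.61 to 5.06 against 3.56 to 4.17. The part of these marker differences in the results was not tested, and in bulk RNA fewer cells of a type cannot be told apart from less RNA per cell.

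Libraries made from total RNA keep unspliced and non-polyadenylated RNA along with mature messages. Unspliced RNA outside annotated exons is known from several sources, among them introns of precursor RNAs, transcription that runs past the end of a gene, RNA started in the opposite direction at promoters, enhancers, processed pseudogenes and transposable elements. Many copies of the last 2 kinds are nearly identical, and reads from such copies can be placed at more than 1 locus. The kit marks the strand, but transcripts were estimated without a strand option, and a single-exon transcript has no splice site from which its strand could be read.

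Sequence is shown for 2 members, because they hold a whole promoter window of a RefSeq gene and do not share long runs with the other windows. Copies of these 2 windows elsewhere in the genome sequence were not searched for. RefSeq's promoter windows (GRCm38.p6) span 250 bases before to 50 bases after each annotated start. Of 32851 such windows, 29 members touched one and 7 held one whole. Capitals mark the 50 bases from the annotated start onwards, and the lower-case letters come before it.
MSTRG.11718, window of Morf4l1b at chr19:41525002-41525301, plus strand: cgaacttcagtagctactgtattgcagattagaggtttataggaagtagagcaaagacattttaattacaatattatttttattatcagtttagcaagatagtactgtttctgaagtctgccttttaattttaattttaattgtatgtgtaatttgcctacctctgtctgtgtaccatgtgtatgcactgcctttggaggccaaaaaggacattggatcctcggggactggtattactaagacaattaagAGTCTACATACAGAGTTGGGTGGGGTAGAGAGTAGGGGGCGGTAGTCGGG
MSTRG.10254, window of Fbxl17 at chr17:63500531-63500830, minus strand: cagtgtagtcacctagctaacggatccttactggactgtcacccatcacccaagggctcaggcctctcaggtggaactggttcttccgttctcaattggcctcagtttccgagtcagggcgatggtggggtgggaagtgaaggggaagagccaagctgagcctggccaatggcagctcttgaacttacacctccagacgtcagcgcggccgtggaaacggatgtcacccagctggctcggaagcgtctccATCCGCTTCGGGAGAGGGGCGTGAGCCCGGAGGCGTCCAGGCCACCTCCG
The window in MSTRG.11718 was 38.7% G or C, with 4 CG dinucleotides, and the letters TATAAA occurred in it when both strands were searched. The window in MSTRG.10254 was 61.0% G or C, with 17 CG dinucleotides and no TATAAA. Over all windows the median was 52.7% G or C and 7 CG dinucleotides, and 13.6% held TATAAA on either strand. A letter match is a description only.

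These windows sat in different settings. MSTRG.11718 lies in an intron of Lcor, which encodes a nuclear receptor corepressor, and also meets the span of the RefSeq protein-coding gene Morf4l1b. Whether its reads belong to Morf4l1b or to Lcor was not tested. The TPM of MSTRG.11718 was 15.4, 13.4 and 13.0 in chloride replicates 1, 2 and 3 and 13.7 and 12.2 in propionate replicates 2 and 3. The groups overlapped, with a change of -0.10 (limma adjusted p = 0.740). All changes are differences of log2(TPM + 1), propionate less chloride, fitted with limma, with p-values adjusted by Benjamini-Hochberg over 14824 loci, and library values are always given in this order. MSTRG.10254 lies 73 bases before the reference start of Fbxl17, whose product is a substrate adaptor of a ubiquitin ligase. It measured 1.5, 1.94 and 1.41 TPM with chloride and 1.70 and 1.43 with propionate (change -0.03, adjusted p = 0.961), values that overlapped. The Fbxl17 locus itself stood at 9.25, 8.95 and 8.70 against 7.04 and 7.40 TPM.

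The other 5 windows fell into 2 groups that shared long exact runs. Those in MSTRG.12687 (RefSeq Gm52512), MSTRG.3056 (Gm40814) and MSTRG.18391 (Gm52796), on chromosomes 2, 11 and 5, shared exact runs of 240 bases for the first pair, 148 for the first and last, and 88 for the other two. Windows in MSTRG.15665 (Gm46854, chromosome 4) and MSTRG.13037 (Gm46754, chromosome 2) shared an exact run of 298 of their 300 bases. Because the letters recur, reads of these members may be split between copies, and their levels are uncertain. MSTRG.12687 measured 56.3, 49.8 and 45.5 TPM with chloride and 61.9 and 74.0 with propionate. MSTRG.3056, in an intron of Pkd1l1, measured 18.3, 15.4 and 14.8 against 20.9 and 23.8. MSTRG.18391 measured 3.30, 2.54 and 2.47 against 4.33 and 4.08. In each of these 3 members both propionate libraries lay above all chloride libraries, with changes of 0.42, 0.44 and 0.47, and none passed the threshold (adjusted p of 0.119, 0.102 and 0.160). MSTRG.15665 measured 5.0, 5.38 and 4.84 TPM with chloride and 4.36 and 4.35 with propionate (change -0.18, adjusted p = 0.502). MSTRG.13037 measured 4.38, 4.48 and 4.13 against 3.65 and 3.44 (change -0.23, adjusted p = 0.407). In this second group both propionate libraries lay below all chloride libraries, and the test was again not passed.

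Position was set against the reference transcripts listed in the same files, without regard to the strand of the member. Each member got a single position, in the order intron, 3′ end, start and farther away. A member beyond the end of one gene and before the start of another thus counts as beyond a 3′ end. None of the 1172 members overlapped a reference exon. Wholly inside an intron were 289 members (24.7%), so they are outside reference exons but not outside reference genes. A further 201 (17.2%) lay within 5 kb beyond a 3′ end, 122 (10.4%) within 5 kb before a start, and 560 (47.8%) over 5 kb from any reference transcript. RefSeq, a second annotation, had a gene span over 426 members. Of these, 190 were outside the reference transcripts, where 59 met a lncRNA, 66 a pseudogene and 43 a protein-coding gene.

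Most members were short and low. Length ran from 200 to 51614 bases with a median of 646 and quartiles of 349.75 and 1333.5, and 787 members were under 1000 bases. Mean TPM ran from 1.00 to 2050, with a median of 2.11 and quartiles of 1.48 and 4.68. Under 5 TPM stood 890 members, whereas 175 reached 10 TPM and 28 reached 100. Intronic members had a median length of 728 bases and a median of 2.35 TPM. Members beyond a 3′ end measured 556 bases and 2.06 TPM, those before a start 570 bases and 1.69 TPM, and those farther away 664.5 bases and 2.13 TPM. The 4 positions thus held members of similar median size and level, and each also held members far above it, up to 1448, 111, 293 and 2050 TPM in that order.

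**Figure D1:**
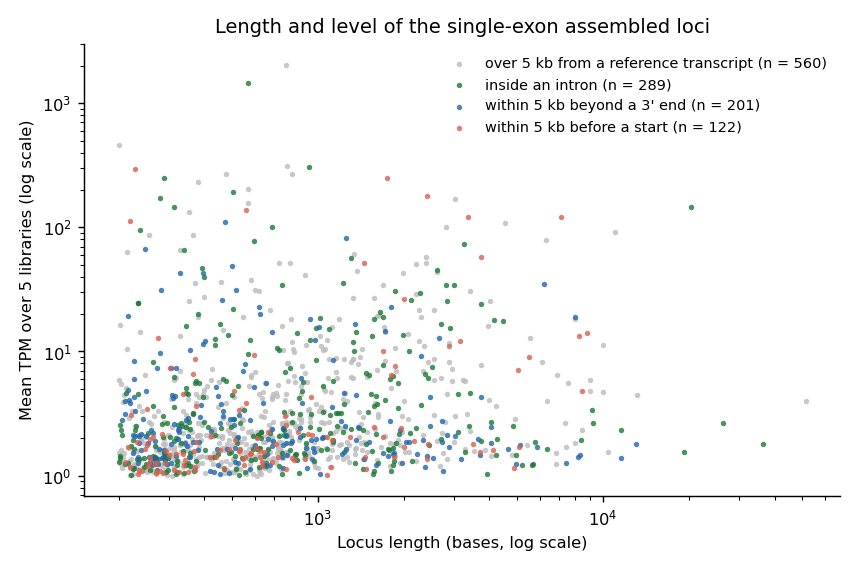
Length of each of the 1172 loci in bases against its mean TPM over 5 libraries, both on log scales, with 1 point per locus coloured by position against reference transcripts. Most points lie below 5 TPM and under 1000 bases at every position, and the highest point is a locus of 775 bases at 2050 TPM.

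The 1 TPM minimum cut through a dense range of levels. Just inside it, MSTRG.6623 measured 0.264, 1.22, 0.690, 0.755 and 2.08 TPM, MSTRG.2643 measured 0.434, 1.5, 0.519, 0.559 and 1.99, and MSTRG.6866 measured 1.15, 1.92, 0.668, 0.786 and 0.524. Just outside it, MSTRG.22052 averaged 0.999 TPM, MSTRG.25340 averaged 0.998 and MSTRG.15940 averaged 0.997. Loci on either side of the minimum were alike in level. At least 1 TPM in each library was reached by 817 members, and 16 were listed at 0 in at least 1 library.

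The strand field was empty in all 5 files for 1041 members. It was minus in all files for 36, plus in all for 23, given in some files only for 69, and of both signs for 3. The highest member, MSTRG.1390, is one of those with both signs. Members also lay near each other: 208 had another member within 5 kb, forming 98 clumps, the largest of 4 members at chr7:127618434-127627819. Counting each clump once left 1062 separate stretches, so neighbouring members may be pieces of the same RNA.

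Chromosomes 11, 2 and 1 carried the most members (87, 85 and 79). Relative to tested loci with a reference transcript, the autosomes carried between 5.62 members per 100 (chromosome 9) and 10.8 (chromosome 6). The X chromosome carried 71 members, or 15.2 per 100. The Y chromosome, whose long arm is made largely of repeated sequence in mice, carried 24 members beside only 7 tested reference loci. A further 5 members were on scaffolds outside the assembled chromosomes. The Y members made up 4.76, 5.003 and 3.98% of member TPM with chloride and 4.71 and 6.25% with propionate.

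**Figure D2:**
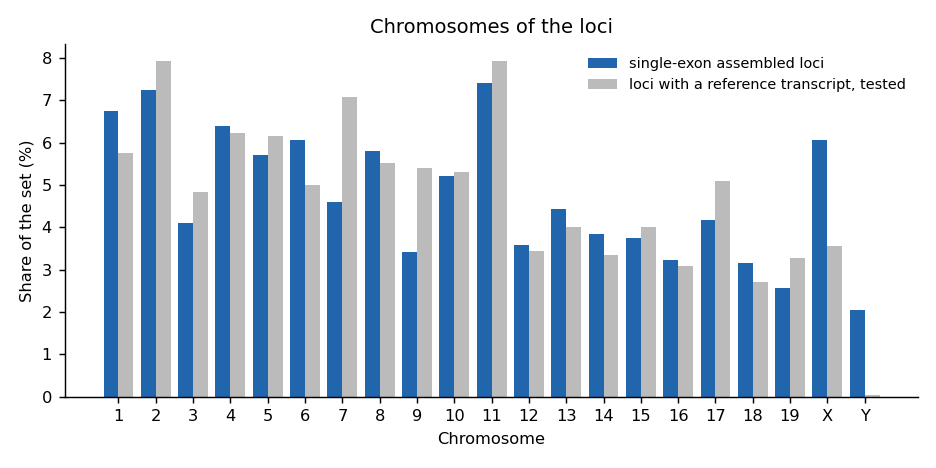
Share of the 1172 single-exon assembled loci (blue) and of the 13153 tested loci with a reference transcript (grey) on each chromosome, in percent. The X chromosome holds 6.06% of the assembled and 3.55% of the reference loci, and the Y chromosome 2.05% and 0.0532%.

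All members together took 1.57, 1.29 and 1.46% of TPM in the chloride libraries and 1.74 and 1.498% in the propionate libraries, so the groups overlapped. The 10 highest members held 42.3, 33.8 and 37.2% of that sum with chloride and 42.3 and 38.2% with propionate. Without them the members summed to 9077, 8532 and 9168 TPM with chloride and to 10026 and 9263 with propionate. The propionate sums were then both above the chloride sums, by a margin smaller than the spread within either group. By position, the intronic sum varied most, at 5440, 3442 and 4571 TPM with chloride and 6065 and 3458 with propionate. Members over 5 kb from a reference transcript summed to 7468, 6850 and 7161 TPM with chloride and to 8075 and 8713 with propionate.

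Which of these loci changed with propionate was the comparison the design implies. Both directions were found: 9 members passed an adjusted p of 0.05 in limma, 5 higher and 4 lower, that is 0.768% of members. Of all 14824 loci tested, 352 (2.37%) passed, 250 higher (1.69%) and 102 lower (0.688%). Among loci with a reference transcript 330 of 13153 (2.51%) passed, and among assembled loci with a multi-exon transcript 13 of 499 (2.61%). The share among members was thus below the background in this fit, and the difference between these shares was not tested. With the replicate number as a block it was 3.67% of members against 3.41% of all loci. Replicate 1 is in the chloride group alone, so the block fit takes no change from that library. Its changes at the named loci equal those without chloride replicate 1. With TPM rescaled by median ratios, the share was 2.22% of members (18 higher, 8 lower) against 4.01% of all loci (415 higher, 179 lower). With TPM taken over loci with a multi-exon transcript, it was 1.96% of members (12 higher, 11 lower) against 4.1% of all loci (362 higher, 246 lower). Without propionate replicate 3 no member passed (127 at an unadjusted p under 0.05), and without any other single library 4 to 7 did. With no minimum level none of the 9 kept its call, and with reference genes plus assembled loci as features 3 did.

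At an unadjusted p under 0.05 in limma, 148 members were counted, 79 higher and 69 lower, which is 12.6% against 16.8% of all loci (8.13% higher and 8.68% lower). Groups that did not overlap were seen in 318 members, 157 higher and 161 lower, which is 27.1% against 34.4% of all loci (15% higher and 19.3% lower). The median change was -0.01 over the members and -0.02 over all loci. Above 0 were 577 members and below it 595. Without the 123 members whose mean was under 1 TPM in one group, 532 were above 0 and 517 below, and 137 higher and 131 lower members had groups that did not overlap. Changes from the 5th to the 95th percentile ran from -0.50 to 0.48 for members and from -0.39 to 0.45 for all loci, with a median SE of 0.20 against 0.13. Members were therefore spread slightly more widely than loci in general and measured less precisely.

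Calls and precision differed between ranges of level. Between 1 and 2 TPM none of 547 members passed, with a median SE of 0.23. From 2 to 5 TPM 4 of 343 passed, from 5 to 10 TPM 2 of 107, from 10 to 50 TPM 2 of 126 and from 50 TPM upwards 1 of 49. The median SE was 0.18, 0.14, 0.12 and 0.12 in these 4 ranges, and the median length rose from 553 bases at 1 to 2 TPM to 1085 at 10 to 50 TPM and was 733 above. The median change was between -0.05 and 0.04 in each range under 50 TPM and 0.19 from 50 TPM upwards. By position, the calls were 1 higher and 3 lower in introns (1.38% of those members), none beyond a 3′ end, 2 higher before a start (1.64%), and 2 higher and 1 lower farther away (0.536%).

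**Figure D3:**
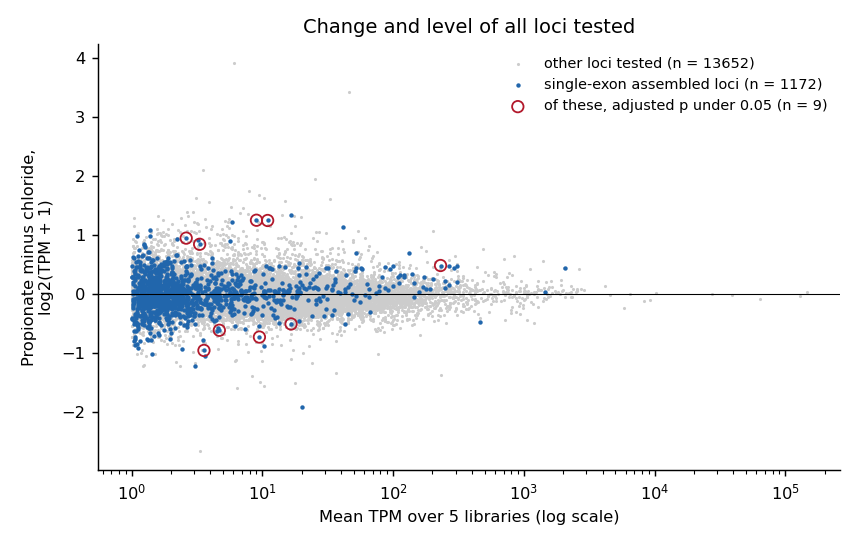
Change between treatments (difference of log2(TPM + 1), propionate less chloride, vertical axis) against mean TPM over 5 libraries (log scale) for 1172 single-exon assembled loci (blue) and the other 13652 loci tested (grey), with the 9 members past the threshold circled. The blue points widen towards 1 TPM, where none is circled, and most from 50 TPM upwards lie above 0, with a median of 0.19.

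Among members past the threshold, the largest increases were at MSTRG.12866 and MSTRG.4884. MSTRG.12866 is an unstranded stretch of 5494 bases at chr2:75638110-75643603, which lies 4727 bases before the start of the predicted gene Gm13655, a gene listed at 0 in every library. It measured 6.64, 4.89 and 4.93 TPM with chloride and 13.5 and 15.1 with propionate. Both propionate libraries were above every chloride library, and the change was 1.25 ± 0.14 (SE, adjusted p = 0.00435), a 2.61-fold ratio of mean TPM. The nearest tested reference loci did not pass the test. Hnrnpa3, an RNA-binding protein gene whose locus is 15640 bases away and also holds Gm24574, stood at 13.6, 14.8 and 12.8 against 13.7 and 13.6 TPM (change -0.01, adjusted p = 0.987). Nfe2l2, which encodes the oxidative stress factor NRF2 and lies 31909 bases away, had a change of 0.20 (adjusted p = 0.479).

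MSTRG.4884 is 2881 bases long, on the plus strand in all files, at chr12:35743310-35746190. It ends 38 bases before the reference gene Gm48264, inside the span of the RefSeq lncRNA Gm40388. The TPM was 6.43, 7.14 and 6.58 with chloride and 15.5 and 19.2 with propionate, so the groups stood apart. The change was 1.24 ± 0.12 (adjusted p = 0.00238), a 2.58-fold ratio. Its nearest tested reference locus, the lncRNA 9130015A21Rik at 48191 bases, moved in the same direction, from 16.4, 20.1 and 16.7 to 57.7 and 54.6 TPM (change 1.62 ± 0.11, adjusted p = 0.000580). Ahr, the gene of the ligand-activated aryl hydrocarbon receptor, lies 208271 bases away and stood at 23.4, 19.3 and 20.7 against 34.7 and 33.5 TPM (change 0.67 ± 0.11, adjusted p = 0.0190). All 3 loci of this neighbourhood rose. Without propionate replicate 3, MSTRG.4884 had a change of 1.1 (adjusted p = 0.0567) and MSTRG.12866 one of 1.18 (adjusted p = 0.0786), and each kept its call without any other single library.

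The other 3 increases were at short loci. MSTRG.13616 is 283 bases in an intron of Cnbd2 at chr2:156362359-156362641, with 1.63, 1.45 and 1.80 TPM against 4.80 and 3.40. Its change was 0.95 ± 0.18 (adjusted p = 0.0319), while Cnbd2, a gene of a cyclic nucleotide-binding protein, had one of -0.08 (adjusted p = 0.851). MSTRG.4525 is 242 bases at chr11:116636738-116636979, 8615 bases from Cygb, the gene of cytoglobin. It measured 2.12, 2.82 and 1.92 TPM against 4.75 and 4.96 (change 0.84 ± 0.16, adjusted p = 0.0356). Cygb, too low to be tested, stood at 0.584, 0.200 and 0.222 against 1.13 and 1.99 TPM. The nearest tested gene, Rhbdf2, encodes an inactive rhomboid protein. It stood at 1.11, 0.971 and 1.18 against 1.68 and 1.86 TPM, with a change of 0.41 (adjusted p = 0.321). In both of these genes the propionate values were also above all chloride values. At MSTRG.13616 and MSTRG.4525 every propionate value was above every chloride value, at levels of a few TPM.

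MSTRG.1317 was far more abundant. It is 379 bases at chr1:164226424-164226802, 6146 bases from the coagulation factor gene F5. TPM was 221, 195 and 181 with chloride and 276 and 279 with propionate. The groups stood apart by a modest change of 0.48 ± 0.10 (adjusted p = 0.0479), a 1.39-fold ratio. The nearest tested genes, the thiamine transporter gene Slc19a2 and Ccdc181, had changes of -0.24 and -0.05 and did not pass (adjusted p of 0.432 and 0.904). MSTRG.1317 lost its call without any 1 of the 5 libraries, with adjusted p between 0.0623 and 0.165.

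Of the 4 decreases, 3 lay in introns of reference transcripts. Of these 3, only MSTRG.7308 also lay in the RefSeq span of its host gene. MSTRG.23376, of 313 bases at chr9:35588725-35589037, lies in an intron of Pate2 and over the RefSeq pseudogene Gm10105. It fell from 5.61, 3.34 and 5.15 TPM to 1.81 and 1.97 (change -0.96 ± 0.19, adjusted p = 0.0409). As a pseudogene it may share reads with its parent, so its level is uncertain. MSTRG.7308, of 569 bases at chr14:69968526-69969094 in an intron of Pebp4, fell from 10.1, 13.0 and 11.4 TPM to 6.72 and 6.28 (change -0.73 ± 0.13, adjusted p = 0.0237). Pebp4 belongs to the phosphatidylethanolamine-binding protein family. The host loci were far lower than these members. Pate2 stood at 0.335, 0.367 and 0.430 against 0.442 and 0.144 TPM, and Pebp4 at 0.186, 0.133 and 0 against 0.189 and 0. At both MSTRG.23376 and MSTRG.7308 the propionate libraries lay below all chloride libraries.

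MSTRG.12015, of 2704 bases at chr2:7404073-7406776, lies in an intron of Celf2, the gene of a splicing regulator. Its TPM was 18.3, 20.0 and 18.6 with chloride and 12.7 and 13.4 with propionate (change -0.51 ± 0.10, adjusted p = 0.0396). The Celf2 locus measured 7.41, 7.77 and 7.61 against 7.002 and 4.24 TPM (change -0.41, adjusted p = 0.265). The neighbouring member MSTRG.12016, at chr2:7407064-7409350, measured 32.6, 34.4 and 31.6 against 23.6 and 26.7 (change -0.38, adjusted p = 0.0977). All 3 were lower in both propionate libraries than in every chloride library, and of these only MSTRG.12015 passed. MSTRG.8612, the fourth decrease, is 1114 bases at chr16:13102032-13103145, 6538 bases from Ercc4, which encodes a DNA repair nuclease. It measured 5.61, 5.51 and 5.69 TPM against 3.06 and 3.57 (change -0.62 ± 0.13, adjusted p = 0.0439), and Ercc4 had a change of -0.28 (adjusted p = 0.365).

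**Figure D4:**
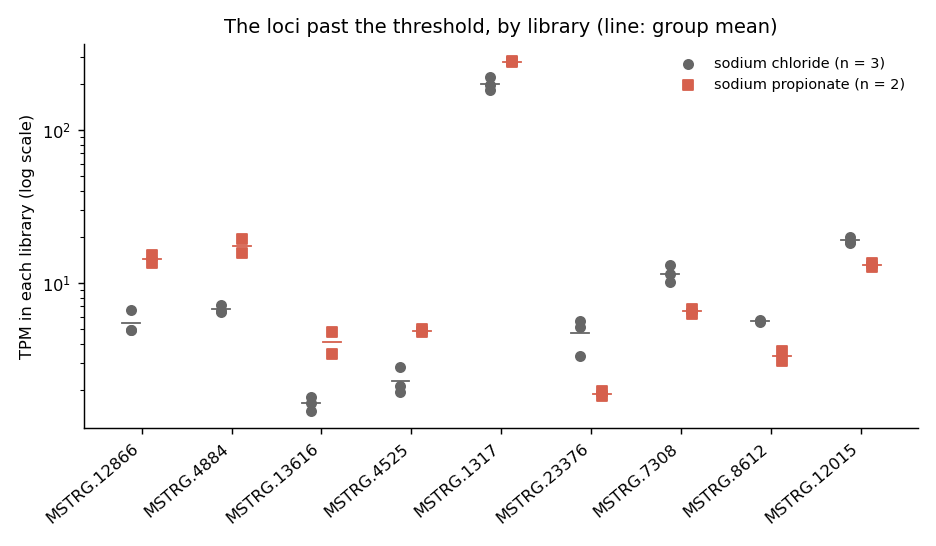
TPM on a log scale of the 9 members past the threshold in each of 3 sodium chloride (circles) and 2 sodium propionate libraries (squares), with a line at each group mean. In the first 5 loci both squares lie above all circles and in the last 4 below them, most widely at MSTRG.12866 and MSTRG.4884.

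Calls of the other members were as sensitive to single libraries. MSTRG.13616 kept its call only without chloride replicate 3, MSTRG.4525 and MSTRG.23376 only without chloride replicate 2, and MSTRG.7308 without chloride replicate 1 or 3. Over the fits without 1 library the changes were 0.75 to 1.14, 0.76 to 0.95, -1.14 to -0.84 and -0.81 to -0.65 at these 4 loci. MSTRG.8612 and MSTRG.12015 lost theirs without any 1 library, with adjusted p between 0.0932 and 0.152 and between 0.0765 and 0.158. Each of the 9 kept its direction under the alternatives in which it was fitted, 14 for 5 of them and 13 for MSTRG.13616, MSTRG.4525, MSTRG.23376 and MSTRG.8612, which fall below the minimum of 5 TPM.

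Some members with changes of similar or larger size did not pass, and 5 of them, chosen after their values were seen, are given here. MSTRG.1220, of 264 bases in an intron of Tdrd5, measured 3.87, 3.87 and 6.85 TPM against 2.26 and 1.32 (change -1.05 ± 0.24, adjusted p = 0.0597). MSTRG.12951, of 267 bases, measured 1.17, 0.499 and 0.329 TPM against 2.48 and 2.39 (change 1.08 ± 0.25, adjusted p = 0.0627). In both the groups did not overlap, and MSTRG.12951 is one of the members whose chloride mean was under 1 TPM. In the other 3 they overlapped. MSTRG.17028, of 379 bases in an intron of the chaperone gene Dnajb6 and over the RefSeq pseudogene Gm5552, measured 19.7, 22.2 and 23.3 TPM with chloride and 35.3 with propionate replicate 2, and was listed at 0 in propionate replicate 3. Its change was -1.91 ± 1.104 (adjusted p = 0.424). MSTRG.18541, of 453 bases over the pseudogene Gm8652, was listed at 0 in chloride replicate 3 and at 20.2 and 23.9 TPM in the other two chloride libraries, against 23.2 and 16.1 with propionate (change 1.33 ± 1.12, adjusted p = 0.604). MSTRG.18515, of 904 bases, measured 46.0, 6.82 and 25.01 TPM against 111 and 18.2 (change 1.13 ± 0.78, adjusted p = 0.514). At each of these 3, libraries of one treatment differed by more than the treatments did.

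Such disagreement between libraries of one treatment was common among the members. A ratio of at least 2 between the highest and lowest chloride library was found in 288 members (24.6%), against 589 reference loci (4.48%). Single-exon reference loci came closer, at 283 of 1621 (17.5%), and so did assembled multi-exon loci, at 112 of 499 (22.4%). At 10 TPM or more the ratio was reached by 22 of 175 members (12.6%) and 30 of 7442 reference loci (0.403%). Single-exon reference loci reached it in 16 of 525 (3.05%) and assembled multi-exon loci in 5 of 63 (7.94%). From 50 TPM upwards it was reached by 12 of 49 members (24.5%) and 13 of 1870 reference loci (0.695%). There it was 9 of 225 single-exon reference loci (4%) and 1 of 17 assembled multi-exon loci (5.88%). These shares are descriptions of the libraries, and the differences between them were not tested.

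The 10 highest members showed both steady and erratic levels. MSTRG.1390, of 775 bases at chr1:170945391-170946165 in RefSeq Gm39701, measured 1976, 1776 and 1643 TPM with chloride and 2225 and 2631 with propionate (change 0.43 ± 0.11, adjusted p = 0.0827). MSTRG.23416, of 780 bases at chr9:41909809-41910588 in Gm40514, measured 306, 265 and 232 against 338 and 406 (change 0.48 ± 0.13, adjusted p = 0.101). MSTRG.25397, of 810 bases at chrY:58851028-58851837, measured 269, 229 and 201 against 287 and 357 (change 0.47 ± 0.14, adjusted p = 0.125). These 3 loci, on 3 chromosomes, had similar lengths and the same order of the 5 libraries, with propionate above chloride throughout, and none passed the threshold. MSTRG.24365, of 1750 bases at chr9:122401675-122403424 and 2873 bases before A730085K08Rik, was the steadiest of the 10, at 249, 242 and 239 against 250 and 271 TPM (change 0.10 ± 0.09, adjusted p = 0.626).

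The remaining 6 of the 10 varied more within a treatment than between treatments. MSTRG.9042, of 568 bases at chr16:57391111-57391678 in an intron of Filip1l and Cmss1, measured 2290, 909 and 1054 TPM against 2164 and 824 (change 0.04 ± 0.43, adjusted p = 0.974). Its host locus stood at 36.2, 32.1 and 28.4 against 45.5 and 50.5 TPM and passed the test (change 0.57, adjusted p = 0.0477). MSTRG.18432, of 932 bases at chr5:146260631-146261562 in an intron of the Mediator kinase gene Cdk8, measured 407, 212 and 228 against 476 and 204 (change 0.21 ± 0.35, adjusted p = 0.823). Both were highest in chloride replicate 1 and propionate replicate 2. MSTRG.2184, at chr10:72297173-72297372 and with 200 bases among the shortest members, measured 568, 410 and 496 against 200 and 619 (change -0.47 ± 0.37, adjusted p = 0.572). It alone of the 6 was lowest in propionate replicate 2.

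MSTRG.10320, of 229 bases at chr17:70963668-70963896 and 3989 bases before Gm41611, measured 242, 110 and 402 TPM against 547 and 164 (change 0.44 ± 0.55, adjusted p = 0.751). MSTRG.13996, of 475 bases at chr3:5860338-5860812, measured 201, 103 and 463 against 441 and 126 (change 0.15 ± 0.60, adjusted p = 0.933). MSTRG.5144, of 289 bases at chr12:78350885-78351173 in an intron of Gphn, which encodes the synaptic scaffold gephyrin, measured 149, 99.9 and 467 against 418 and 119 (change 0.22 ± 0.63, adjusted p = 0.901). These 3 loci on 3 chromosomes were each high in chloride replicate 3 and propionate replicate 2 and lowest in chloride replicate 2.

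**Figure D5:**
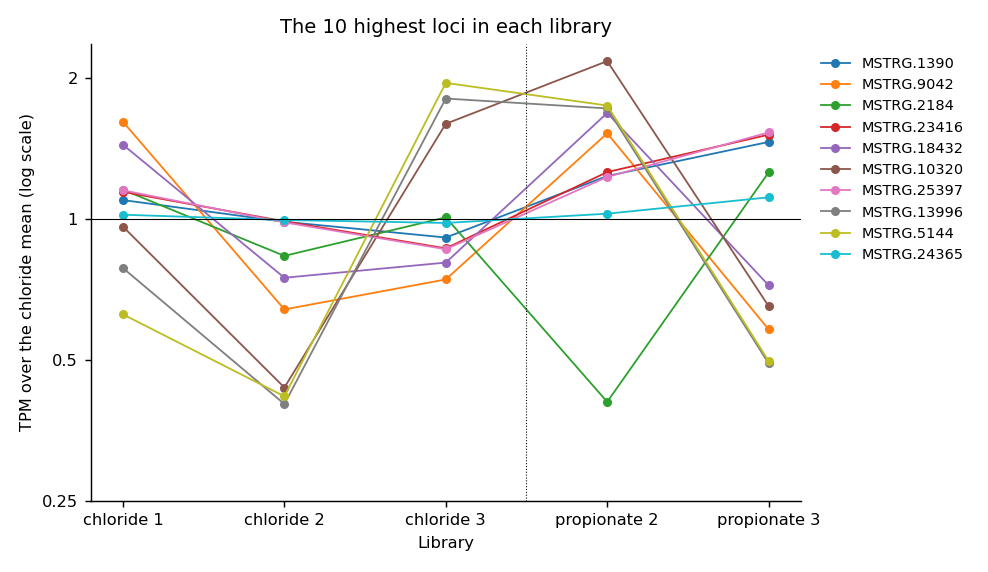
TPM of the 10 highest members in each library, divided by the member's mean over the 3 chloride libraries (log scale), with 1 line per member joining its 5 libraries and a dotted line between treatments. MSTRG.1390, MSTRG.23416 and MSTRG.25397 run together and end highest in propionate replicate 3, whereas MSTRG.10320, MSTRG.13996 and MSTRG.5144 run together with peaks in chloride replicate 3 and propionate replicate 2.

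The order of libraries seen in MSTRG.1390 was counted over all members after it had been noticed, as a description. From highest to lowest it is propionate replicate 3, propionate replicate 2, then chloride replicates 1, 2 and 3. At 10 TPM or more, 28 of 175 members (16.0%) had it, against 331 of 7442 reference loci (4.45%). Assembled multi-exon loci also had it, at 9.52% of 63 loci at 10 TPM or more. At 50 TPM or more it was 29.4% of 17 such loci, against 30.6% of 49 members. Among single-exon reference loci it was 1.71% of 525 at 10 TPM or more and 3.11% of 225 at 50 TPM or more. Over all levels the share was 2.82% of members and 4.09% of reference loci. Another pattern was chloride replicate 2 lowest and propionate replicate 3 below propionate replicate 2. It fixes less of the library order, so its shares cannot be set against those of the first. At 10 TPM or more, 36 of 175 members (20.6%) had it, against 374 of 7442 reference loci (5.03%). Single-exon reference loci came close, at 96 of 525 (18.3%), whereas assembled multi-exon loci had it in 3 of 63 (4.76%). At 50 TPM or more it was 26.5% of 49 members and 0% of 17 assembled multi-exon loci. Over all levels it was 13.2% of members and 7.23% of reference loci. The 28 loci with the order of MSTRG.1390 lay on 12 chromosomes, 5 of them on Y, and 17 were over 5 kb from a reference transcript. They held 27.7, 30.4 and 24.7% of member TPM with chloride and 27.6 and 37.3% with propionate. These shares come from the same values that picked the loci.

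Among these 28 the propionate mean was 1.07 to 1.44 times the chloride mean, with a median of 1.33, and 25 reached 1.2. The order that picked these loci places both propionate libraries above every chloride library. The direction of their changes, on Y as elsewhere, was thus fixed by the choice and is a description only. Only MSTRG.1317 passed the threshold. MSTRG.6228, of 2818 bases on chromosome 13, measured 98.4, 86.3 and 76.3 TPM against 112 and 130 (change 0.47, adjusted p = 0.0919). MSTRG.16005, of 7145 bases on chromosome 4, measured 122, 108 and 98.1 against 126 and 148 (change 0.32, adjusted p = 0.212). MSTRG.6469, of 3374 bases on chromosome 13, measured 122, 110 and 101 against 127 and 145 (change 0.29, adjusted p = 0.219). The 5 loci on Y were MSTRG.25367, MSTRG.25371, MSTRG.25383, MSTRG.25393 and MSTRG.25397, with changes of 0.33, 0.32, 0.45, 0.45 and 0.47 and adjusted p from 0.125 to 0.205.

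On Y as a whole, 9 of 24 members had groups that did not overlap, all with propionate higher, and none passed the adjusted test. Against the 15% of all loci that were higher without overlap, that share was 37.5%, and some of these loci may be copies of one sequence. The 24 loci summed to 748, 645 and 581 TPM with chloride and to 819 and 937 with propionate. The sums did not overlap.

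The longest members had a different order. MSTRG.11994 spans 51614 bases at chr2:8216620-8268233 and measured 3.15, 4.61 and 5.70 TPM against 3.39 and 2.93 (change -0.37, adjusted p = 0.384). MSTRG.11599, of 36547 bases at chr19:28489543-28526089 in an intron of the transcription factor gene Glis3, measured 1.2, 1.77 and 2.69 against 1.58 and 1.72 (change -0.09, adjusted p = 0.887). MSTRG.18171, of 26441 bases at chr5:132461005-132487445 in an intron of Auts2, measured 2.09, 2.81 and 3.80 against 2.41 and 2.25 (change -0.20, adjusted p = 0.667). Each was highest in chloride replicate 3 and lower in chloride replicates 2 and 1 in turn. Of 13 members of at least 10000 bases, 9 had chloride replicate 3 as the highest chloride library (69.2%, against 29.0% of all members), 11 had a change below 0 and none passed. Of 51 of at least 5000 bases, 41 had a change below 0, with a median of -0.17, and 1, MSTRG.12866, passed in the opposite direction.

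At the other end of length, besides MSTRG.2184, MSTRG.10413 (200 bases, chr17:84883235-84883434) measured 6.25, 4.83 and 4.39 TPM against 8.57 and 5.17, and MSTRG.20415 (201 bases, chr7:39655476-39655676) measured 1.43, 1.14 and 2.17 against 2.1 and 0.722. Neither passed (changes of 0.33 and -0.14, adjusted p of 0.443 and 0.859). Under 500 bases, 39.5% of 451 members had chloride libraries that differed at least 2-fold, against 9.04% of the 177 members of 2000 bases or more.

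Members were last set beside their nearest reference locus, where that locus was tested (457 members). The change had the same sign in 250 pairs (54.7%), and across these pairs the correlation of changes was 0.14. Beyond a 3′ end, 63 of 107 pairs had the same sign with a correlation of 0.41. In introns it was 76 of 135 pairs (0.09), before a start 49 of 79 (0.17), and over 5 kb away 62 of 136 (-0.04). The nearest locus was taken whatever its orientation, so it need not be the gene whose end or start gave the position. Several members can also share the same nearest locus. These correlations run across loci that share the same 5 libraries, and they are given as descriptions without a test.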

How the data were processed

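Per the labels' protocols, RNA came from an RNeasy Mini plus extraction, and its libraries from a stranded TruSeq kit for total RNA (LT, Gold). Tools named in the submitters' processing notes are bcl2fastq, fastp, HISAT2 and StringTie, with mm10 as the build. Per the file headers, StringTie 2.1.1 estimated coverage, FPKM and TPM for each transcript of one merged annotation, without a strand option, and the authors deposited these 3 values and no read counts. TPM sums to 1000000 per library over 157895 transcripts (142480 reference, 15415 assembled), small RNAs included. Loci with a multi-exon transcript hold a share of only 0.503 to 0.556 of it, so single-exon RNAs weigh on all levels. Near-identical copies can exchange reads in these estimates.

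TPM was summed per locus, and the 14824 loci with a mean of at least 1 TPM were tested on log2(TPM + 1) by a two-sided limma-trend fit (limma 3.58.1, R 4.3.3) with group as its term, at a Benjamini-Hochberg adjusted p of 0.05. The script was tested on simulated data. Fold changes on this scale understate the change of low loci. An exact permutation test of 3 against 2 libraries cannot give a p under 0.1 and was not used. Positions came from the reference transcripts in the files (bedtools 2.31.1), gene names from GENCODE M21 and RefSeq (both GRCm38), and promoter windows were matched to transcripts with BLAST 2.17.0. The genome sequence was not used here, so base composition and repeats of the members are not given.

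Members, marker lists and the naming rule were chosen with earlier results of these data known. Named were members past the threshold with separate groups, the 10 highest, the 3 longest, the 3 shortest and those at the 1 TPM limit, with neighbouring genes. Members holding a promoter window, the library orders and 5 members with large uncalled changes were picked after seeing values. Alternatives were another pseudocount (0.1), a minimum of 5 TPM or none, FPKM, 2 rescalings of TPM, voom on aligned bases (divided by 100), reference genes plus assembled loci as features, a replicate block and leaving out each library.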

Additional observations from a re-analysis of the deposited data

How the results depend on the processing

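Counts of loci past the threshold, 9 members and 352 of all loci with the settings of the report, depended on the settings. With no minimum level limma called 0 members and 0 loci (173 and 3541 at an unadjusted p under 0.05). Rescaling by median ratios gave 26 members (2.22%) and 594 loci (4.01%). TPM over loci with a multi-exon transcript gave 23 (1.96%) and 608 (4.1%), and voom on aligned bases 41 (3.5%) and 1359 (9.17%). With reference genes plus assembled loci as features the counts were 3 members (0.256%) and 175 of 15635 features (1.12%). FPKM gave 13 of 862 members (1.51%, against 3.47% of all loci). A minimum of 5 TPM gave 8 of 282 (2.84%, against 3.48%) and a pseudocount of 0.1 gave 9 (0.768%, against 2.23%). With the replicate block 43 members (3.67%) and 506 loci (3.41%) passed. Deviations of same-numbered samples from their group means had correlations of -0.15 and -0.146. With 2 propionate libraries these deviations mirror each other, so the check cannot decide whether the numbers pair the samples. Without 1 library the count was 0 to 7 members and 19 to 223 loci, the lowest of each without propionate replicate 3. Of the 9 called members, 9 were called again with both rescalings, 7 with the block, 5 with voom and 3 with reference genes plus assembled loci. The number of members was 862 with a minimum mean FPKM of 1 and 817 with at least 1 TPM in each library. The cause of these shifts was not tested.

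Leaving out 1 library reversed the sign of 6 of the 10 highest members, none of which passed. Their changes ran from -0.66 to 0.74 (MSTRG.9042), -1.28 to 0.34 (MSTRG.2184), -0.40 to 0.82 (MSTRG.18432), -0.43 to 1.31 (MSTRG.10320), -0.75 to 1.05 (MSTRG.13996) and -0.68 to 1.12 (MSTRG.5144). MSTRG.1390, MSTRG.23416 and MSTRG.25397 passed under 4, 3 and 2 of 14 alternatives, among them voom (adjusted p of 0.00338, 0.00948 and 0.0144) and the block (0.0120, 0.0210 and 0.0252). With 2 propionate libraries and a median of 8235 aligned bases per member the precision is limited, and no member between 1 and 2 TPM passed, where the median SE was 0.23.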
